A study of Mus musculus with 4 samples.

Results

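The Zfp genes that lie in genomic clusters were examined in the peak list of an ALaP-seq experiment on mouse embryonic stem cells. ALaP-seq maps chromatin close to PML bodies: the peroxidase APEX, joined to the PML protein by a knock-in, labels its surroundings when hydrogen peroxide is added. The members were the autosomal protein-coding genes named Zfp and a number in the GENCODE M21 annotation whose 5′ end lay within 200 kb of the 5′ end of another such gene. Genes in an interval near the distal end of chromosome 4, which holds a separate large group, were left out, as were Zfp42, Zfp281 and Zfp352. This gave 208 genes of 21911 protein-coding genes, in 50 clusters on 14 chromosomes. Of the other autosomal Zfp genes of this naming, 18 lay in the chromosome 4 interval and 129 had no neighbour within 200 kb; these are called solitary here.

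The series holds 4 samples of E14 cells, an established embryonic stem cell line, all carrying the APEX-PML knock-in: 2 were treated with hydrogen peroxide (H2O2+) and 2 were controls without it (H2O2-). All were grown with leukemia inhibitory factor, CHIR99021 and PD0325901, inhibitors of GSK3 and MEK that hold stem cells in an undifferentiated state; whether the knock-in line is 1 clone is not stated. The file used here is 1 merged list of 26496 peaks with positions only, with a median width of 223 bp. It names no sample, so depth, replicate spread and any difference between H2O2+ and H2O2- samples could not be computed, and no signal value stands behind a peak other than its width. Peaks lay within 1 kb of the 5′ ends of the pluripotency genes Pou5f1, Sox2, Nanog, Klf4 and Tdgf1. That of Klf4 (129 bp, chr4:55531340-55531468) lay at the edge of this window, with the 5′ end at 55532466. None lay within 1 kb of the 5′ ends of Alb, Afp, Cd3d and Krt5, markers of liver, T cells and epidermis. Intervals below are exact Clopper-Pearson 95% intervals with genes as units; they cover counting error only, and neighbouring genes can share peaks and are not independent.

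Zfp genes encode C2H2 zinc finger proteins, in which tandem fingers, each held by a zinc ion bound to cysteines and histidines, read DNA sequence. Many carry a KRAB domain, which recruits the corepressor Trim28 (KAP1) and through it the histone H3 lysine 9 methyltransferase Setdb1 and HP1 proteins, and many of these silence transposable elements in embryonic stem cells. The family grew by tandem duplication, which left its genes in clusters, and the finger array of a typical member is coded by the last exon. PML bodies are nuclear bodies built on the PML protein, which also gather Daxx and SUMO-modified proteins.

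Most clustered Zfp genes had a peak at their start. Sequences just upstream of a 5′ end are given from GRCm38, the assembly of mm10, to show the range of promoters involved; CpG dinucleotides are in capitals and each sequence reads 5′ to 3′ on the strand of the gene. Zfp960 (chr17:17063863-17064112, plus strand), Zfp263 (chr16:3743843-3744092, plus strand) and Zfp13 (chr17:23599488-23599617, minus strand) had the widest promoter peaks, and the sequence shown lies inside the peak. Zfp120 (chr2:150136819-150136958, minus strand) and Zfp457 (chr13:67306512-67306644, minus strand) had a peak at a promoter with few CpGs. Zfp746 (chr6:48086594-48086793, minus strand) had no promoter peak although its promoter is rich in CpG.
Zfp960: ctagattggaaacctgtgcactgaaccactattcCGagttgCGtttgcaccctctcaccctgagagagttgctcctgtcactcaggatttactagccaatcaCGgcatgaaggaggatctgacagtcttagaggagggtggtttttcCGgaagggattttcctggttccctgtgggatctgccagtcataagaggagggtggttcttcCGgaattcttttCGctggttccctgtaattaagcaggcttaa
Zfp263: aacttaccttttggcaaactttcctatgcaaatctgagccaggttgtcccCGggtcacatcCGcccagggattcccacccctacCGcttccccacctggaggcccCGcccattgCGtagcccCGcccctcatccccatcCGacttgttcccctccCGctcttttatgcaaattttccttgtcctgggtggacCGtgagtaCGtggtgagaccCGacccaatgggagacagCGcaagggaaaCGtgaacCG
Zfp13: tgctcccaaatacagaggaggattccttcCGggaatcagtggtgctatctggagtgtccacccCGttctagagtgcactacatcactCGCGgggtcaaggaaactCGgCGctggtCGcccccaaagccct
Zfp120: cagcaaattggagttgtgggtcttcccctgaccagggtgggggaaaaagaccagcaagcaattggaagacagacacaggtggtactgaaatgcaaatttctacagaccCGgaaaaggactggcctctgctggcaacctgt
Zfp457: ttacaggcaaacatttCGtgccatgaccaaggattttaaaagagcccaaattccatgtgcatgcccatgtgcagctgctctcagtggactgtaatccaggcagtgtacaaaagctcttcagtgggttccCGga
Zfp746: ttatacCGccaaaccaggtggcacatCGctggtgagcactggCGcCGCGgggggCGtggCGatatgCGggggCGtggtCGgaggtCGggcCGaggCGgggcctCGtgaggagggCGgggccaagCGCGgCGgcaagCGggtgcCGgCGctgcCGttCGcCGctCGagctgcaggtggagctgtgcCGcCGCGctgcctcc
The 130 bases of Zfp13 held 7 CpGs, the 133 bases of Zfp457 held 2 and the 140 bases of Zfp120 held 1, while the 200 bases of Zfp746 held 28 and carried no peak.

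Peaks at the finger-coding exon were rarer. The 4 shown here were chosen because they fall on the coding sequence of the finger array; codons for the paired cysteines and histidines of the C2H2 pattern are in capitals. The stretches are the first 180 coding bases under the peak in Zfp771 (chr7:127254061-127254240, plus strand), Zfp777 (chr6:48024837-48025016, minus strand), Zfp467 (chr6:48438917-48439096, minus strand) and Zfp444 (chr7:6189660-6189839, plus strand).
Zfp771: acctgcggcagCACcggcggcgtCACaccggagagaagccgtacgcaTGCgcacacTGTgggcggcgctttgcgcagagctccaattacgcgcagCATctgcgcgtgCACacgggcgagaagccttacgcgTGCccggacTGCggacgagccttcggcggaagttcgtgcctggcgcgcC
Zfp777: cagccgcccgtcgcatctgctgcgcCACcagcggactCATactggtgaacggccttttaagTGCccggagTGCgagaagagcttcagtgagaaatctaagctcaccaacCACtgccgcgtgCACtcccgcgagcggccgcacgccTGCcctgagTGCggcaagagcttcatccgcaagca
Zfp467: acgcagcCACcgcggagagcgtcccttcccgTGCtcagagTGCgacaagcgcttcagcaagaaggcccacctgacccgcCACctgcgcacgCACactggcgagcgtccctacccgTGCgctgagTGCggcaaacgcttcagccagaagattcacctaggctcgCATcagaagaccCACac
Zfp444: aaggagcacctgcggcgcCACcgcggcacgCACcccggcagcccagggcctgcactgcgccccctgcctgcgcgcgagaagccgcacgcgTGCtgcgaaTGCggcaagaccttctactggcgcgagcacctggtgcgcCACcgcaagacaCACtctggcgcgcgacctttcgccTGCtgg
The whole peak held 5 complete fingers in Zfp771, 4 in Zfp777, 3 in Zfp467 and 2 in Zfp444.

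A promoter peak, here any overlap between a peak and the 1 kb upstream or downstream of the 5′ end, was found at 126 of the 208 clustered Zfp genes (60.6%, interval 53.6 to 67.3%), against 38.4% of all protein-coding genes. All protein-coding genes include those on the sex chromosomes, while members are autosomal. Over autosomal protein-coding genes alone the share was 40.3%. The share was 38.9% in the chromosome 4 interval (7 of 18 genes, 17.3 to 64.3%) and 60.5% among solitary Zfp genes (78 of 129, 51.5 to 69.0%). Clustered and solitary genes therefore had shares whose intervals overlap almost wholly, while the interval of the clustered genes lies above the share of all genes. Counting every annotated start of a gene raised the clustered genes to 134 (64.4%), against 42.4% of all genes; 8 clustered genes had a peak only at a start other than the 5′ end. One promoter peak was present at 103 clustered genes and more than 1 at 23, which made 146 different peaks. With peaks of at least 223 bp only, the share was 39.4%, against 24.7% of all genes. Their width was ordinary: the widest peak of a gene had a median of 286.5 bp (quartiles 195 and 397 bp) in clustered genes, 323.5 bp in solitary genes and 281 bp in all genes with a promoter peak.

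The widest promoter peaks, by name, ran down to 546 bp. Zfp960 had a peak of 803 bp at chr17:17063525-17064327, which ended beyond its 5′ end on the plus strand. Zfp263, a SCAN domain protein, had one of 747 bp at chr16:3743566-3744312, and Zfp13 one of 744 bp at chr17:23598874-23599617. All 3 covered the 5′ end. At Zfp960, 2 of 3 stretches of 150 bp at the start have a near-identical copy, although the centre of the peak has none. Zfp28 followed with 702 bp, Zfp444 with 622 bp and Zfp524 with 621 bp. Zfp110, a neurotrophin receptor interacting factor, had 616 bp, Zfp825 had 605 bp and Zfp760 had 581 bp. Zfp667 had 569 bp, Zfp647 had 550 bp and Zfp146 had 546 bp. The 12 genes come from 10 different clusters, since Zfp28, Zfp444 and Zfp667 lie together on chromosome 7, and 8 of the 12 code for a KRAB-like stretch. The narrowest widest peak of a clustered gene was the 93 bp peak of Zfp459 on chromosome 13.

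Promoter peaks in the whole list follow CpG content, so the count was set against it. The ratio of observed to expected CpG, taken over the 500 bp upstream and downstream of the 5′ end, was cut into 10 classes of equal size over all protein-coding genes. Had each clustered Zfp gene the share of its class, 91.5 of them (44.0%) would hold a promoter peak, against the 126 observed; for solitary genes the same sum was 67.1, against 78 observed, and for the chromosome 4 interval it was 1.60, against 7. The gap was widest in the lower middle of the scale. In class 4, where the ratio lies between 0.264 and 0.399, 18 of 41 clustered genes had a peak (43.9%, 28.5 to 60.3%), against 13.7% of all genes. In class 5 it was 29 of 50 (58%, 43.2 to 71.8%), against 34.3% of all genes. In class 6 it was 25 of 38 (65.8%, 48.6 to 80.4%), against 53.3%, an interval that includes the value of all genes. From class 7 up, the shares of clustered genes lay between 69.2% and 87.5% and those of all genes between 64.7% and 72.3%, and the intervals took in the value of all genes in each of these 4 classes. Within class 4 the median ratio was 0.346 in clustered genes and 0.326 in all genes, so the classes still leave a small difference in CpG content. The median ratio was 0.624 in clustered genes with a promoter peak and 0.494 in those without one, against 0.751 and 0.284 over all genes.

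**Figure D1:**
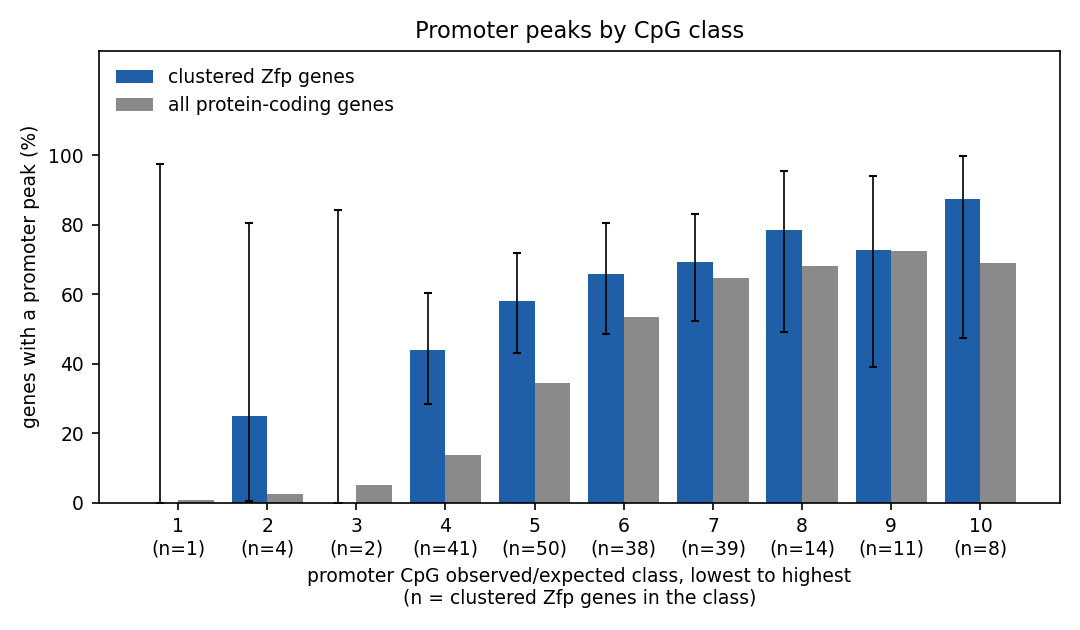
Share of genes with a promoter peak (y axis, percent) in 10 classes of promoter CpG observed/expected (x axis, lowest to highest), for clustered Zfp genes (blue, exact 95% intervals as bars, number of genes under each class) and all protein-coding genes (grey). In class 4 the share is 43.9% in clustered Zfp genes and 13.7% in all genes, and from class 7 up the intervals include the value of all genes; classes 1 to 3 hold only 1, 4 and 2 clustered genes.

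The clustered genes with a peak at the lowest CpG ratios were Zfp345 (ratio 0.169, peak of 320 bp), Zfp811 (0.270, 230 bp), Zfp983 (0.288, 150 bp), Zfp947 (0.289, 146 bp), Zfp977 (0.307, 181 bp) and Zfp120 (0.313, 174 bp). The peaks of Zfp345, Zfp947 and Zfp977 have a near-identical copy elsewhere in the genome. The list does not show whether their reads could be told apart from reads of that copy. The peak centres of Zfp811, Zfp983 and Zfp120 have none, but at Zfp983 2 of 3 stretches of 150 bp at the start have one. At the other end, Zfp746, whose human counterpart is also known as PARIS, had no promoter peak at a ratio of 1.01, the highest among clustered genes without one. Zfp777 (0.862) and Zfp212 (0.849), its neighbours on chromosome 6, lacked one as well. Zfp266 (0.821), Zfp768 (0.792), Zfp942 (0.778), Zfp943 (0.760), Zfp334 (0.727), Zfp180 (0.712) and Zfp329 (0.708) followed. Of these 10 genes, Zfp942 and Zfp943 have near-identical copies of their whole start region, and the other 8 have none.

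A few clustered genes have a known silencing target in the mouse, and their values are given here although they were picked after the values were seen. Zfp809, which silences murine leukemia proviruses through their primer binding site, had a promoter peak of 309 bp whose midpoint lay 113 bp downstream of the 5′ end. Zfp568, which represses a placental promoter of Igf2, had 2 promoter peaks, the wider of 399 bp. Zfp445, which maintains genomic imprints, had one of 525 bp centred 1 bp from its 5′ end. Zfp932 had 2, the wider of 152 bp, but both have a near-identical copy elsewhere. Zfp708 had none at its 5′ end and 1 of 251 bp in its body, at another annotated start.

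Where the promoter peak lay differed a little from other genes. The midpoint of the widest peak had a median of 45.5 bp downstream of the 5′ end in clustered genes (quartiles −69.5 and 128 bp), 55.5 bp downstream in solitary genes and 5 bp upstream in all genes (−5 bp). It was upstream of the 5′ end in 46 of the 126 clustered genes (36.5%) and in 51.1% of all genes with a promoter peak. The peak covered the 5′ end itself in 72 clustered genes (57.1%) and in 56.7% of all such genes. These shares carry no test.

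**Figure D2:**
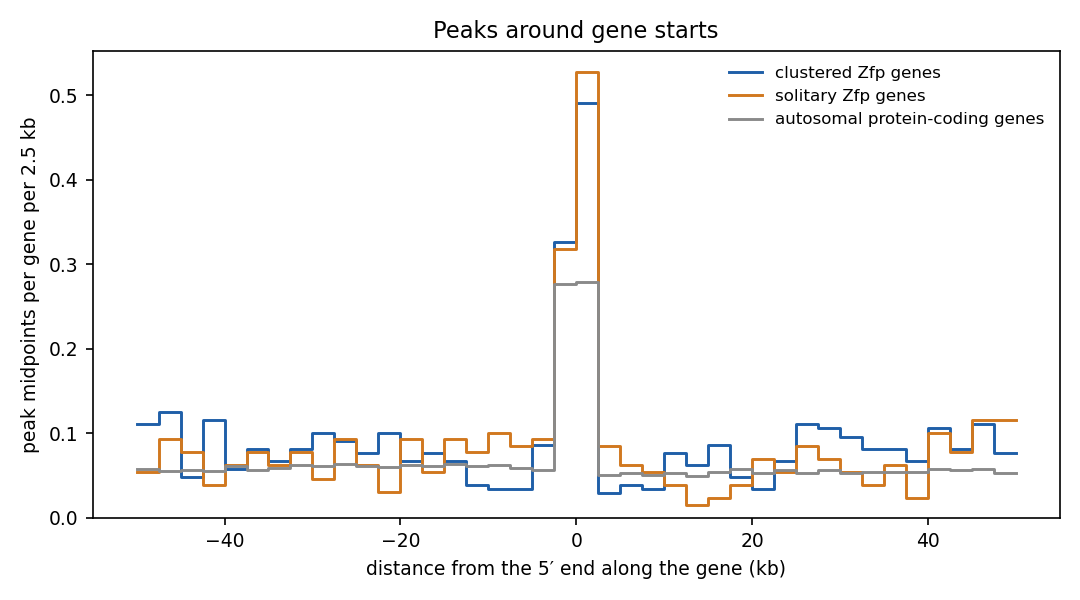
Peak midpoints per gene (y axis) in bins of 2.5 kb by distance from the 5′ end along the gene (x axis, kb) for clustered Zfp genes (blue), solitary Zfp genes (orange) and autosomal protein-coding genes (grey). The bin just downstream of the 5′ end holds 0.490 midpoints per clustered gene and 0.527 per solitary gene, and the next bin downstream 0.0288 and 0.0853.

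The clusters were also read one by one. Of the 50, 24 are pairs, and whether clusters differ beyond counting error was not tested. All members had a promoter peak in 11 of the 50 clusters, some had one in 33, and none had one in 6. The spans of the clusters, 9.13 Mb together, held 305 peaks, or 33.4 per Mb, against 10.96 per Mb over the autosomes. They are also dense in genes, with 34.8 protein-coding starts per Mb, against 8.67 over the autosomes. Leaving out peaks at promoters of coding genes gave 13.7 per Mb, against 7.31. The span of Zfp936 and Zfp715 alone held 22 peaks, 14 of them with a near-identical copy. Of 110 other protein-coding genes inside the spans, 46 (41.8%) had a promoter peak.

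The largest cluster, 19 genes over 788 kb of chromosome 13 (chr13:67038596-67827002), held 12 genes with a promoter peak, against 3.92 from their CpG classes. All 19 code for a KRAB-like stretch, and their median CpG ratio was 0.376. The widest peak in it was that of Zfp748 at 461 bp, followed by Zfp87 at 436 bp, Zfp595 at 388 bp and Zfp493 at 366 bp. Zfp708, Zfp759 and Zfp458 were among the 7 without one. The start of 1 of the 19 genes, Zfp738, which had no promoter peak, has a near-identical copy in part of its length, and 2 of the 23 peaks in the span have one.

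On chromosome 7, 12 of the 15 genes of the cluster at chr7:29768552-30169750 had a promoter peak, against 7.52 from CpG classes. Zfp146 had the widest, and Zfp30, Zfp27 and Zfp14 had none. All 6 genes at chr7:6131491-6396915 had one (3.62 from CpG classes), led by Zfp28, with widths of 195 bp at Zfp787, 622 bp at Zfp444, 569 bp at Zfp667, 268 bp at Zfp583, 251 bp at Zfp78 and 702 bp at Zfp28. In the cluster of 6 at chr7:4915217-5053723, 5 had one (3.46 from CpG classes), led by Zfp524, and Zfp579 did not. The cluster of 8 at chr7:127233061-127615797 had 5 (4.36), led by Zfp553 at 540 bp, without Zfp768, Zfp747 and Zfp629. The cluster of 12 at chr7:24081924-24587641 was near its sum, with 5 genes against 4.19. There Zfp428 had the widest peak at 460 bp, and Zfp180, Zfp112 and Zfp235 were among the 7 genes without a peak. In the small cluster of Zfp141, Zfp977, Zfp976 and Zfp975 all 4 genes had a promoter peak, against 1.36 from CpG classes, but 4 of the 6 peaks in its span have near-identical copies.

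On chromosome 17, 7 of the 13 genes at chr17:21383748-22071168 had a promoter peak, against 5.07 from CpG classes, with Zfp760 the widest and Zfp677, Zfp52 and Zfp820 among those without. The cluster of 8 at chr17:32765496-33110705 had 4, against 3.15, with Zfp870 the widest at 340 bp and Zfp871, Zfp799 and Zfp952 among those without. The cluster of 7 on chromosome 6 (chr6:47819266-48086593) went the other way, with 3 genes against 4.23. Zfp786 had a peak of 391 bp, Zfp398 one of 271 bp and Zfp956 one of 137 bp; Zfp282, Zfp212, Zfp777 and Zfp746 had none.

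**Figure D3:**
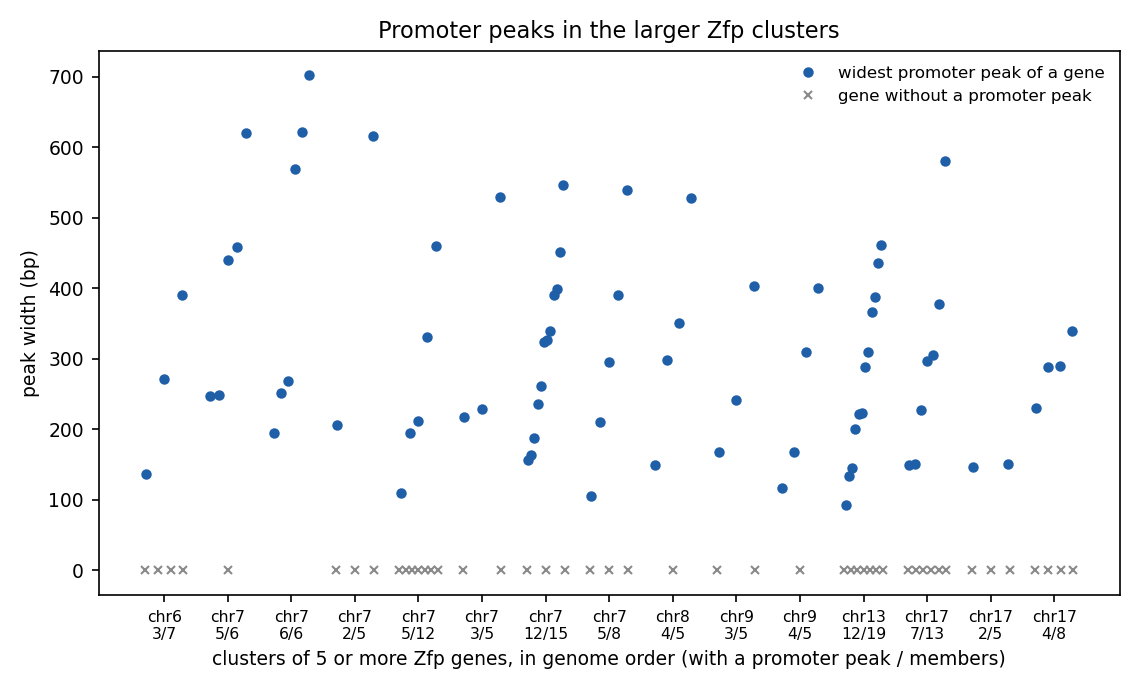
Width of the widest promoter peak (y axis, bp; blue points) for each gene of the clusters of 5 or more Zfp genes, in genome order along the x axis, with the genes without a promoter peak as grey crosses at 0. Under each cluster stand its chromosome and the genes with a peak out of its members, such as 12 of 19 for the largest, on chromosome 13, and 6 of 6 for one on chromosome 7; genes within a cluster are spread sideways by width only.

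The 6 clusters without any promoter peak also had no peak anywhere in their spans. They hold 13 genes: Zfp663 with Zfp334, Zfp968 with Zfp965, Zfp967 with Zfp973, and Zfp972 with Zfp971 and Zfp931 on chromosome 2; Zfp157 with Zfp68 on chromosome 5; and Zfp248 with Zfp9 on chromosome 6. Chromosome 2 as a whole had a promoter peak at 3 of its 13 clustered genes, against 2.28 from their CpG classes, and chromosome 7 at 51 of its 76, against 37.0. Spans without a peak measured 110, 198 and 175 kb for the 3 clusters from Zfp968 to Zfp931. All 7 genes of those 3 clusters have near-identical copies over the whole start region. Its part in the missing peaks was not tested.

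Near-identical copies went with fewer peaks at the start. A start region was tiled with 3 stretches of 150 bp, and a stretch counted as copied where another place in the genome matched it at 95% identity over 80% of its length. Of 20 clustered genes with all 3 stretches copied, 2 had a promoter peak (10%), Zfp345 and Zfp935, against 3.91% of all protein-coding genes so copied. Of 34 with any copied stretch 12 had one (35.3%), and of 174 with none 114 had one (65.5%), against 10.2% and 42.4% of all protein-coding genes with and without a copied stretch. A copy was present for 11 of the 146 promoter peaks of clustered genes (7.53%) and for 1.32% of the promoter peaks of all genes.

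Some neighbouring genes shared promoter peaks. Zfp646 and Zfp668, on opposite strands of chromosome 7, shared 3 promoter peaks of 422, 286 and 243 bp, of which the widest lies at chr7:127876817-127877238. Zfp617 and Zfp882, whose 5′ ends on chromosome 8 lie next to each other on the same strand, shared 2 of 240 and 111 bp. A further 11 clustered genes shared a promoter peak with a protein-coding gene that is not a member. Among them were Zfp524 with Fiz1 (621 bp), Zfp553 with Sept1 (540 bp) and Zfp866 with Atp13a1 (528 bp). Others were Zfp865 with Ccdc106 (440 bp), Zfp526 with Dedd2 (402 bp) and Zfp672 with Sh3bp5l (255 bp). The list cannot say to which gene of a pair such a peak belongs.

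In the finger-coding 3′ exon, 10 of the 208 clustered genes had a peak outside the promoter window (4.81%, 2.33 to 8.66%), against 2.14% of all protein-coding genes. Over autosomal protein-coding genes alone the share was 2.25%. The chromosome 4 interval had 4 of 18 (22.2%, 6.41 to 47.6%) and solitary Zfp genes 3 of 129 (2.33%, 0.482 to 6.65%). The coding part of the last exon held such a peak in 8 clustered genes (3.85%), against 0.972% of all genes. With peaks of at least 223 bp only, 5 clustered genes had a 3′ exon peak (2.40%), against 1.06% of all genes. The last exon is the exon with the most coding bases in 199 of the 208. Its coding part summed to 281 kb over the 208 clustered genes and to 5553 kb over 20780 autosomal protein-coding genes. It is therefore longer per clustered gene, and the shares above are not adjusted for this length. Per kb of that coding part, peaks covered 7.23 bp in clustered genes and 6.05 bp in autosomal genes.

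The peaks in question were few and mostly short. Zfp771 had the longest, 558 bp at chr7:127254061-127254618, of which 554 bp were coding. Zfp777, with no peak at its promoter, had 514 bp at chr6:48024503-48025016, 385 bp of it coding. Zfp444 had 282 bp and Zfp467, a gene linked to adipocyte differentiation in mouse, had 278 bp, all coding in both. Zfp786 had 189 bp, Zfp324 had 129 bp and Zfp672 had 93 bp, also coding throughout. In Zfp180 (115 bp), Zfp866 (106 bp) and the wider of 2 in Zfp936 (276 bp), the peak lay on the 3′ untranslated part. The narrower peak of Zfp936 (122 bp) lay on coding sequence and has a near-identical copy. Promoter peaks were present at 5 of these 10 genes: Zfp786, Zfp444, Zfp771, Zfp866 and Zfp672. The coding part of the last exon was covered by peaks for 7.23 bp per kb in clustered genes, 31.9 in the chromosome 4 interval, no base in solitary genes and 6.05 in autosomal protein-coding genes. The 3′ untranslated part of the exon had 2.46 bp per kb in clustered genes, 20.1 in the chromosome 4 interval, 1.73 in solitary genes and 3.70 in autosomal genes. Introns had 3.38 bp per kb in clustered genes, 25.1 in the chromosome 4 interval, 3.11 in solitary genes and 2.18 in autosomal genes. Promoter windows had 103 bp per kb in clustered genes, 79.6 in the chromosome 4 interval, 121 in solitary genes and 72.4 in autosomal genes.

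**Figure D4:**
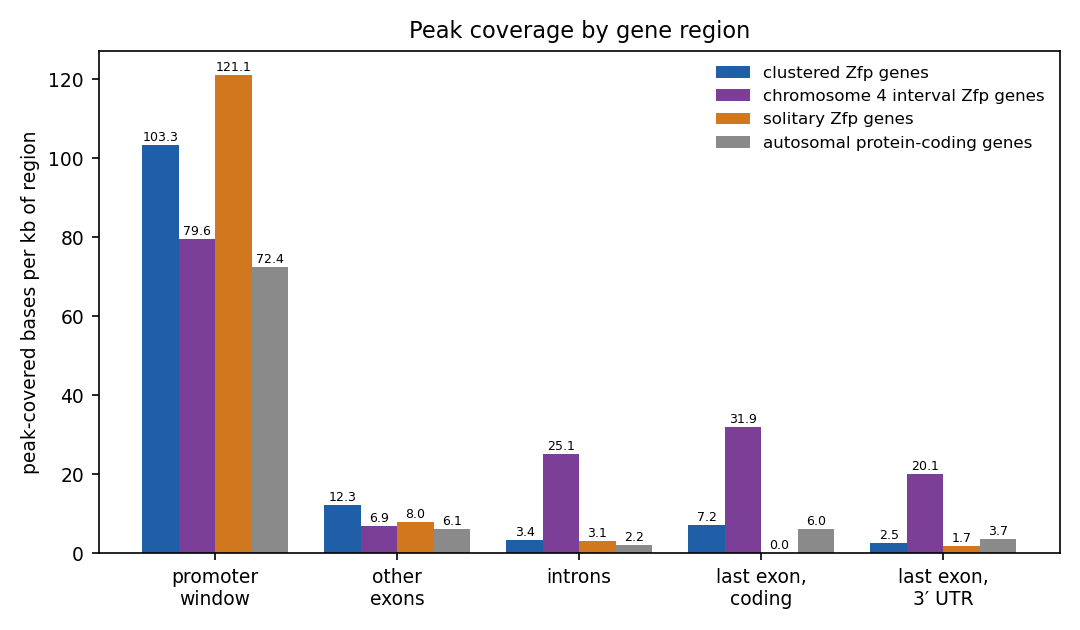
Bases covered by peaks per kb (y axis) of promoter window, coding part of the last exon, 3′ untranslated part of the last exon, other exons and introns (x axis), for clustered Zfp genes, chromosome 4 interval Zfp genes, solitary Zfp genes and autosomal protein-coding genes. The promoter window dominates in each set (103 bp per kb in clustered Zfp genes), and in the last exon the chromosome 4 interval stands at 31.9 bp per kb of coding sequence against 7.23 in clustered genes.

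Anywhere in the gene body, 37 clustered genes had a peak (17.8%, 12.8 to 23.7%), against 20.4% of all protein-coding genes, a share inside the interval. The share was 21.4% of autosomal protein-coding genes, 28.7% of solitary genes and 72.2% of those in the chromosome 4 interval. The 37 genes held 60 body peaks, and 1 gene held 15 of them. This was Zfp936 on chromosome 7, which had no peak at its 5′ end and 3 at other annotated starts. Its body peaks lay from 16.53 to 76.64 kb downstream of the 5′ end, were 95 to 1138 bp wide and included 9 with a near-identical copy. Repeats made up most of the bases of 8 of the 15 and all bases of 2. The next highest were Zfp934, Zfp74 and Zfp866 with 3 each; the 3 of Zfp934 all have copies, and those of Zfp74 and Zfp866 have none. Repeats made up most of the bases of 26.7% of the body peaks of clustered genes, counted once per gene, and of 10.7% of all listed peaks. Without Zfp936 it was 8 of 45 (17.8%). The list of all peaks includes promoter peaks, and the share among body peaks of other genes was not computed.

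**Figure D5:**
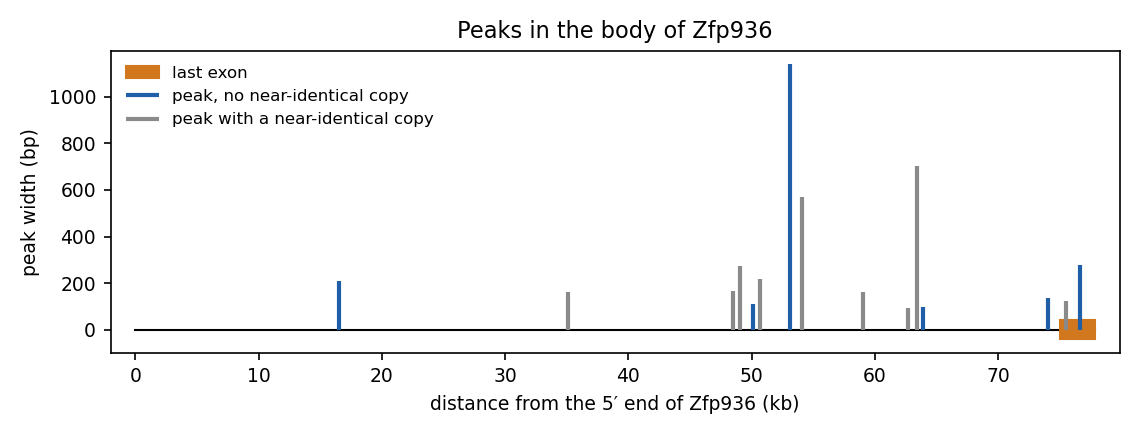
Peaks in the body of Zfp936, by distance from its 5′ end (x axis, kb) and width (y axis, bp), with the last exon as an orange box and peaks with and without a near-identical copy in different colours. Of the 15 peaks, 13 lie between 48.46 and 76.64 kb from the 5′ end, and the widest measures 1138 bp.

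Around the genes, 173 clustered Zfp genes had at least 1 distal peak, that is a peak midpoint within 50 kb of the 5′ end and outside the gene's own promoter window (83.2%, 77.4 to 88.0%), against 61.0% of all protein-coding genes. The share was 63.7% in autosomal protein-coding genes, 94.4% in the chromosome 4 interval and 70.5% (61.9 to 78.2%) in solitary genes. The mean number was 2.95 per clustered gene, 13.9 in the chromosome 4 interval, 2.68 in solitary genes and 2.14 in all genes. Much of this was the promoters of neighbours: outside the promoter window of every protein-coding gene, 122 clustered genes kept a distal peak (58.7%), against 48.6% of all genes, and the mean was 1.375, against 1.29. Solitary genes had a mean of 1.96 on that count, above clustered ones. Their share with such a peak, 58.9% (49.9 to 67.5%), was close to that of clustered genes. Distal peaks of clustered genes were 359 different peaks, of which 8.64% have a near-identical copy, against 5.91% of those of all genes.

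The most distal peaks were found at Zfp553 and Zfp771, neighbours on chromosome 7, with 14 each, of which 9 each lay outside every promoter. Zfp213 on chromosome 17 had 12, and Zfp324 and Zfp446 on chromosome 7 had 11 each. Zfp605 on chromosome 5 had 10, Zfp689 had 9 and Zfp13 had 8. Zfp146, Zfp580, Zfp74, Zfp784 and Zfp960 also had 8, and those of Zfp960, the gene with the widest promoter peak, all lay outside promoters, although 5 of the 8 have a near-identical copy. No peak of any of these kinds was found at 22 clustered genes (10.6%), against 29.1% of all protein-coding genes and 26.1% of autosomal ones. The share was 14.7% in solitary genes and 5.56% in the chromosome 4 interval. Distal peaks at promoters of neighbours count here, so gene density lowers this share.

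The proteins were then divided by domain. A KRAB-like stretch, in which at least 15 of 37 residues equal the majority residue of the family, was found in 160 clustered genes, and 95 of them had a promoter peak (59.4%, 51.3 to 67.1%), against 64.7 genes from their CpG classes. Of the 48 in which it was not found, 31 had a promoter peak (64.6%, 49.5 to 77.8%), against 26.8 from their CpG classes. The intervals overlap, while the median CpG ratio was 0.531 with the KRAB-like stretch and 0.695 without. A 3′ exon peak was present in 5 of 160 (3.13%, 1.02 to 7.14%) with it and 5 of 48 (10.4%, 3.47 to 22.7%) without. The mean number of distal peaks was 2.51 with it and 4.42 without. The stretch was sought in 1 chosen transcript per gene, and how often a KRAB domain was missed was not measured. Zfp746 and Zfp180, for example, matched at 12 residues and so fell below the cut of 15. The 2 groups are therefore not a clean split by domain. A SCAN-like stretch, part of a dimerization domain, was found in 8 proteins, those of Zfp444, Zfp446, Zfp445, Zfp263, Zfp174, Zfp213, Zfp397 and Zfp24; Zfp174 alone of them had no promoter peak. At least 1 C2H2 pattern was found in 204 of the 208 proteins, with a median of 11 and a maximum of 27 in Zfp646. Promoter peaks were present in 62.2% of genes with 16 or more fingers, 61.8% with 11 to 15, 57.6% with 6 to 10, 68.4% with 1 to 5 and 1 of the 4 genes with none. From CpG classes these shares would be 40.3%, 44.5%, 42.1%, 58.7% and 26.0%, so the gap was smallest with 1 to 5 fingers among genes that have any. That group holds only 19 genes (interval 43.4 to 87.4%), and the difference between groups was not tested.

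Short words were counted in the 500 bp upstream and 100 bp downstream of the 5′ end, on both strands. The 12-base core of a motif bound by Zfp143, spelled in capitals in the sequences here, was found in 9 clustered Zfp promoters (4.33%) and in 0.415% of all protein-coding promoters. A promoter peak was present at 6 of these genes and absent at 3. The word is shown in capitals with 9 bases on either side, for 6 genes with a promoter peak and then for Zfp128, Zfp180 and Zfp235 without one. Zfp692 has the word in the direction of the gene and the other 8 in the opposite direction.
Zfp114: ggagtgggaACTACAATTCCCagaatgctt
Zfp108: ggctccagaACTACAATTCCCagaatgcct
Zfp93: ggcgttggaACTACAATTCCCagaattcct
Zfp454: gtggccgaaACTACAATTCCCagaaggctc
Zfp692: ctaaggctaACTACAATTCCCggcaggctt
Zfp58: agtggccagACTACAATTCCCacaagtctg
Zfp128: gacactgagACTACAATTCCCagaaggcca
Zfp180: ctcaatggaACTACAATTCCCagaactctc
Zfp235: ggcgctggaACTACAATTCCCagaatgcgt
In order, these lie at chr7:24175018-24175047, chr7:24254717-24254746, chr7:24270337-24270366, chr11:50887657-50887686, chr11:58307012-58307041, chr13:67500533-67500562, chr7:12881153-12881182, chr7:24081865-24081894 and chr7:24134129-24134158, on the plus strand for those on chromosomes 11 and 13 and on the minus strand for those on chromosome 7. Zfp180, Zfp235, Zfp114, Zfp108 and Zfp93 belong to the same cluster of 12. In the 6 genes with both, the word lay beside the promoter peak and never in it, at gaps of 1 to 58 bp with a median of 29.5 bp. Over all protein-coding genes 69 promoters had both, and the word lay inside the peak in 30.

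The word CCGGAAG, an ETS factor motif that also contains the shorter GGAAG, was found in 60 clustered promoters (28.8%) and in 13.7% of all. It was found in 34.1% of clustered genes with a promoter peak and 20.7% of those without, against 24.7% and 6.91% over all genes. The palindromic NRF1 motif was present in 11 clustered promoters (5.29%) and 1.38% of all. GGGCGG, the GC box bound by Sp1, was present in 42.9% of clustered genes with a promoter peak and 40.2% of those without, while over all genes it was in 73.6% with and 34.2% without. CCAAT was in 64.4% of clustered and 58.3% of all promoters, and TATAAA in 24.0% and 25.5%. GGAAG was in 96.2% and 90.0%, AAGATGGC, the YY1 motif, in 6.25% and 5.07%, CACGTG, the E-box, in 12.02% and 11.99%, and TGACGTCA, the cyclic AMP response element, in 4.81% and 2.76%. GTAAACA, a forkhead motif, was in 5.77% and 6.84%, and the palindrome of CG-rich promoters bound by Zbtb33 in 0.481% and 0.703%. Word shares describe the promoters only.

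Genes of the machinery that KRAB zinc finger proteins recruit were read in the same list. A promoter peak lay at the 5′ end of 16 of 23 (69.6%), against 38.4% of all protein-coding genes and 12.9 genes from their CpG classes. Setdb1 had 1 of 211 bp, and the HP1 genes Cbx1, Cbx3 and Cbx5 had peaks of 402, 1646 and 1927 bp. Among partners of Trim28 and related silencing factors, Smarcad1 had 258 bp, Nsd1 129 bp and Morc3 273 bp. Of the HUSH complex, which silences integrated elements, Mphosph8 had 255 bp, Tasor (annotated as Fam208a) 528 bp and Pphln1 148 bp, and its associated ATPase Morc2a had 208 bp. Resf1, a Setdb1 partner, had 861 bp. Of the DNA methylation genes, the de novo methyltransferase Dnmt3b had 202 bp and Uhrf1, which brings Dnmt1 to newly replicated DNA, had 522 bp. Daxx, a PML body protein and histone chaperone, had 3 promoter peaks, the widest of 436 bp, and Sumo2, which codes for a SUMO protein, had 562 bp. Trim28 itself had none at its 5′ end, but 2 at another annotated start and 14 distal peaks; it lies near Zfp324 and Zfp446. Atf7ip and Dnmt3a had 2 each and Dnmt1 had 1 at another start only, and Chd3, Chd4 and Atrx had no peak at any annotated start. Atrx lies on the X chromosome, unlike Chd3 and Chd4. Of the 8413 protein-coding genes with a promoter peak, 8372 were autosomal, so its lack of a peak is not comparable with theirs.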

How the data were processed

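ALaP-seq DNA was sequenced from 4 samples in 2 groups, 2 with hydrogen peroxide and 2 without. Per the labels, libraries were made with a transposase kit and size-selected. Per the submitters' processing notes, Trimmomatic, Bowtie2 2.3.5.1 and bedtools were used with mm10; the series' design text adds that the genome was repeat-masked and that blacklisted and greylisted regions were removed. The peak caller, its threshold and how replicates were merged were not given in the sources used here. This deposited list holds no counts or scores, and other values only: the start and end of each peak in bp, from which widths were computed. It names no sample, so samples could not be compared, depth is unknown here and no test was run; the number of columns of samples not used is 0. Signal tracks were not analysed here.

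Peaks were joined to GENCODE M21 genes on GRCm38, with 1 entry per symbol and without mitochondrial genes (21911 of 21951 entries), using Python 3.11.15, pandas 2.3.3, numpy 2.4.6, scipy 1.17.1 and pysam 0.24.0; figures used matplotlib 3.10.9. The 5′ end of the gene model was the start, and the last exon was that of the chosen coding transcript. Copies were sought with minimap2 2.31, for the central 150 bp of each peak, at 95% identity over 80% of the query. Zinc fingers (2 cysteines 2 to 4 residues apart, 12 residues, 2 histidines 3 to 5 residues apart) and KRAB-like and SCAN-like stretches were read from translated GENCODE coding sequences, in place of the RefSeq proteins first planned. The overlap count was tested on simulated data.

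Named genes are the 12 clustered genes with the widest promoter peaks, all with a 3′ exon peak, the 8 with most distal peaks, the 10 without a promoter peak at the highest CpG ratio, the 6 with one at the lowest, the widest and up to 3 without a peak in each cluster of 6 or more, pairs that share peaks, and 23 corepressor genes (1 more is not reported here); others are members of the clusters and words described, or are named as picked later. Members, lists and words were chosen with earlier results of these data known.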

Additional observations from a re-analysis of the deposited data

How the results depend on the processing

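No paired analysis was possible because the list names no sample, and no replicate could be left out. The width of the widest promoter peak, the sum from CpG classes (95.7 with a 250 bp window, 92.7 with 20 classes) and the share with a 3′ exon peak moved by less than their spread or interval under the alternatives run; with wider peaks the last fell to 2.40% (5 genes), against 1.06% of all genes. The share with a promoter peak moved only with wider peaks (at least 223 bp), to 39.4%, against 24.7% of all genes. Distal values follow their definition. With wider peaks 69.7% of clustered genes had a distal peak (mean 1.62, against 46.4% and 1.09 for all genes), within 20 kb 45.7% (mean 0.870, against 38.8% and 0.828 for all genes), within 100 kb 92.3% (mean 5.81, against 75.6% and 4.23), and outside every promoter 58.7% (mean 1.375, against 48.6% and 1.29). Linking members at 100 kb (186 genes) or 500 kb (230 genes) gave promoter shares of 61.8% and 60.0%. Chosen after seeing the data, leaving out the cluster of Zfp936 gave 4.37% with a 3′ exon peak, 83.0% with a distal peak and a mean of 2.94, and starts with no near-identical copy gave a promoter share of 65.5%.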
